A study of Homo sapiens with 12 samples.

Results

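The immediate early response genes examined here were FOS, JUN, JUNB, EGR1, IER2, ATF3, DUSP1, KLF6, KLF10 and BTG2. For each of the 10 genes, every FoxK1 peak whose summit lay within 5 kb of 1 stated transcription start on hg19 was taken, and 144 of the 223205 deposited peaks met that rule. The peaks came from FoxK1 chromatin immunoprecipitation in HepG2, an established line from a human hepatocellular carcinoma. All cells had been kept in serum-free medium for 16 h. In 3 libraries, insulin 1 to 3, the cells then received 100 nM insulin for 20 min, and in 3 libraries, untreated 1 to 3, they received none. The 6 input samples were not analysed here. The labels do not say whether the 3 libraries of a treatment are separate cultures; if they are not, the p-values reflect technical spread alone. The measurements are of FoxK1 occupancy on chromatin and hold no RNA level of any of these genes.

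Immediate early genes are transcribed within minutes of a stimulus such as serum, a growth factor or insulin, without new protein synthesis. Many encode transcription factors that act on a later wave of genes, and others encode proteins that damp the signal which induced them. FoxK1 is a forkhead transcription factor that binds variants of the sequence GTAAACA, and insulin signalling is known to move it from the cytoplasm into the nucleus, the opposite of its effect on the FoxO factors.

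The 250 bases upstream of the start are printed for the 4 genes on which the account turns: JUNB, whose peak there was the strongest of the group, FOS and DUSP1, whose strongest peaks lay farther upstream, and EGR1, a textbook target of serum response factor. They were taken from RefSeq on GRCh38.p14, run 5′ to 3′ towards the start on the gene's own strand, and have in capitals the forkhead match of JUNB, the 2 CArG boxes of EGR1 and the CRE of DUSP1. FOS had none of these 3 motifs in its 250 bases, and sequence farther upstream was not searched.
JUNB, chr19:12791236-12791485, plus strand: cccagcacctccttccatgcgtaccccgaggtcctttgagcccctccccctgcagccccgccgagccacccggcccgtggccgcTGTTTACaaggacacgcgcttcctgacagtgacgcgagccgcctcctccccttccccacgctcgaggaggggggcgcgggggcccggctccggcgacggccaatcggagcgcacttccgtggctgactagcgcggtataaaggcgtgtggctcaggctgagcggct
FOS, chr14:75278578-75278827, plus strand: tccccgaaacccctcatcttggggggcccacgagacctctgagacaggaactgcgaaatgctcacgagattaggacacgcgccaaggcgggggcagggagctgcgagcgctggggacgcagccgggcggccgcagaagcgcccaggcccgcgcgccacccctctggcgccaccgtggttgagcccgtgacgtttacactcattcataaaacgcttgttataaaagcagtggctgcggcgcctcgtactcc
EGR1, chr5:138465229-138465478, plus strand: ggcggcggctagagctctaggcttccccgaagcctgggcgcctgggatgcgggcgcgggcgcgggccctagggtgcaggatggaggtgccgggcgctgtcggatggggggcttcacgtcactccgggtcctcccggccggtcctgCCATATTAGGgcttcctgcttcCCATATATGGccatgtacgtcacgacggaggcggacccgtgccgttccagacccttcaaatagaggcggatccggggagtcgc
DUSP1, chr5:172771196-172771445, minus strand: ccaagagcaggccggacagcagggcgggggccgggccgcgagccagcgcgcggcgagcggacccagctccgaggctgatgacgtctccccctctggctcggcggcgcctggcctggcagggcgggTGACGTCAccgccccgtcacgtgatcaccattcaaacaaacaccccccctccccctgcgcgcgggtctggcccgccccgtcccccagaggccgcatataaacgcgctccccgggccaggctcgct

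Promoters on chr8 were left out of the motif search, and KLF10, on that chromosome, was not searched. The other 9 of the 10 genes had an entry in the RefSeq promoter table, and 6 motifs were searched on both strands of their 250 upstream bases. The forkhead motif GTAAACA was present in JUNB alone, at -166 from the RefSeq start, where it reads TGTTTAC on the printed strand. Of the 35116 promoters searched, 2.98% held it. The cyclic AMP response element TGACGTCA, abbreviated CRE, occurred in DUSP1 alone at -125, against 1.65% of the promoters searched. CArG boxes, the core of the serum response element, occurred in EGR1 alone, at -105 and -83, against 1.16%. The ETS motif CCGGAA occurred in IER2 at -26, against 14.5% of promoters. The GC box GGGCGG occurred in 7 of the 9 genes, against 42.6% of promoters, and the AP-1 motif TGANTCA in 0 of 9, against 6.57%. No match of 1 motif overlapped a match of another in these genes. A match is a description of the letters only, and a missing match says nothing of the factor.

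Peaks were called by the authors separately in each library. The insulin lists held 48208, 45057 and 27503 peaks and the untreated lists 44687, 31668 and 26082, so the libraries numbered 3 had the fewest peaks under both treatments. The median number of fragments at a summit was 27, 38 and 21 with insulin and 43, 35 and 22 without. The median of the authors' fold over background was 5.95, 5.58 and 4.78 with insulin and 4.65, 4.18 and 4.21 without. Fold values are the authors' own and are used here to describe peaks within a list. For comparisons between libraries, peaks that overlapped by at least 1 bp were merged into 68127 regions. Each library then ranked the 15887 regions called in all 6 libraries, the shared regions, by the −log10 q of its strongest peak there. A percentile of 99 means that the region stood above 99% of the shared regions of that library.

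FoxK1 peaks surrounded 8 of the 10 starts in every library, and only ATF3 and BTG2 fell short of that. Of the 26 merged regions with a summit in a window, 16 were called in all 6 libraries, and of all merged regions 23.3% were. The values of each gene below are those of its lead region, defined as the one called in the most libraries and then ranked highest, so that its presence is part of its choice. The windows of the same 8 genes held a summit in all 6 libraries, a property of 4.81% of the 303367 tiles of 10 kb on chromosomes 1 to 22 and X. Tiles take in gene-poor sequence, so that share is a genome-wide figure and not one for promoters. The 144 summits fell into 36 sites when summits less than 300 bp apart were chained, and 14 of the sites had a summit in all 6 libraries. JUNB held the most summits, 3 to 5 per library, followed by DUSP1 with 3 to 5, then KLF6 and KLF10 with 2 to 4. IER2 had 2 to 4, FOS and EGR1 2 to 3 each, and JUN 1 to 2. Windows with 4 or more summits numbered 4, 2 and 3 of 10 genes in the insulin libraries and 3, 2 and 2 in the untreated libraries. Around the shared regions in general, 1.47 to 4.54% of windows had as many, with a median of 1 summit. Those windows were centred on the strongest summit of each region and not on gene starts, so that share is not one for promoters.

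**Figure D1:**
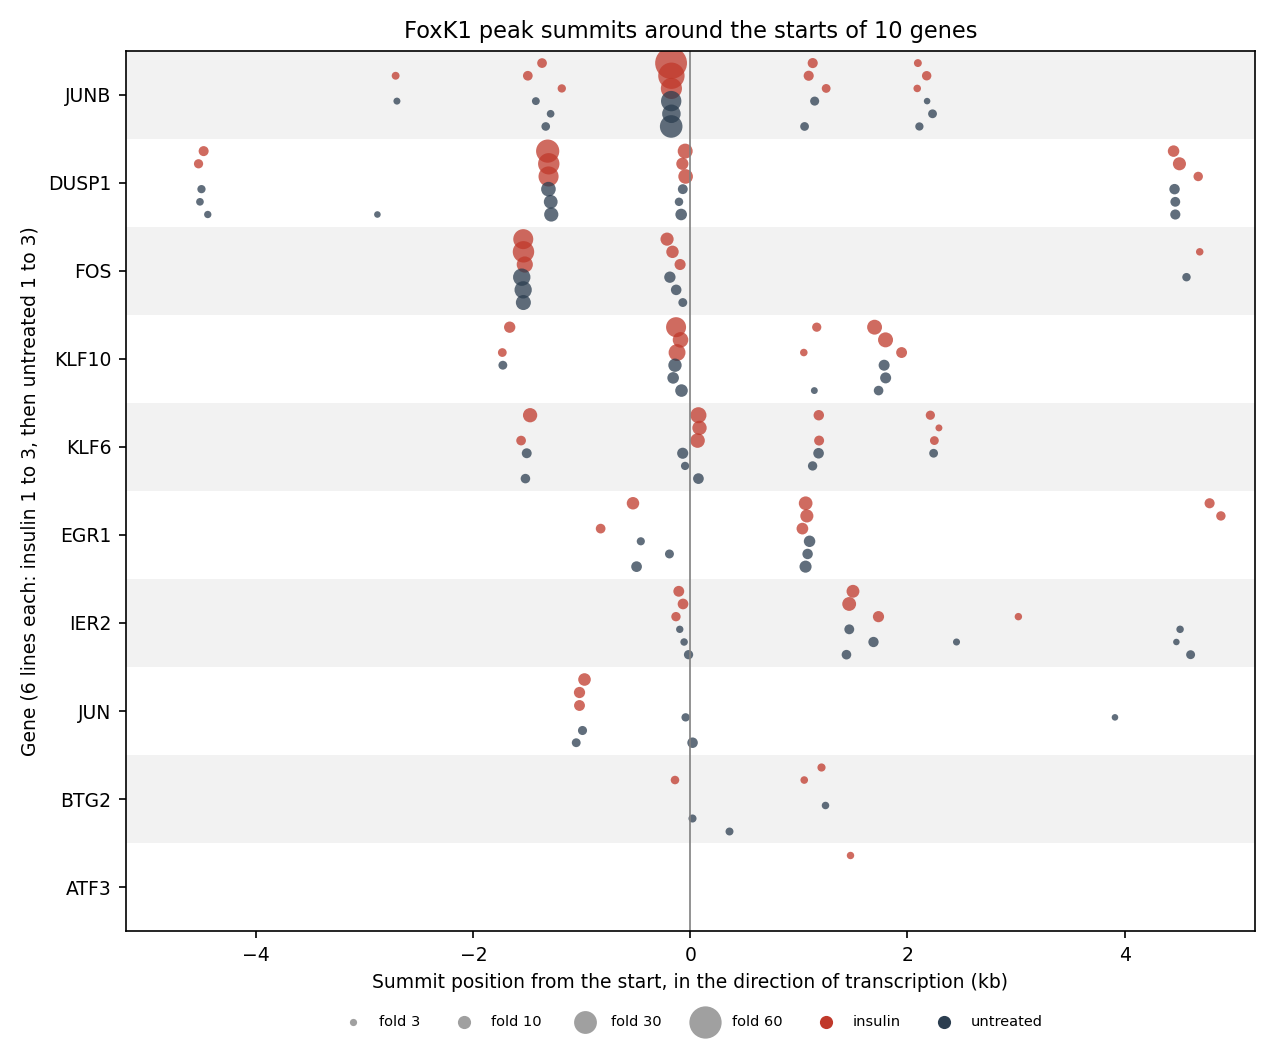
Positions of all 144 FoxK1 summits from each start, in kb along the direction of transcription, with 1 line per library and the dot area in proportion to the authors' fold over background. JUNB carries the largest dots, at its start, while the largest dots of FOS and DUSP1 stand more than 1 kb upstream and the ATF3 row holds a single small dot.

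JUNB, whose product is a JUN-family subunit of the AP-1 dimer, had the strongest FoxK1 peak of the group. Its fold was 58.4, 40.1 and 25.8 in the insulin libraries and 23.9, 19.8 and 29.4 in the untreated libraries. It ranked 91st, 203rd and 161st among all peaks of the insulin lists, and 233rd, 197th and 84th of the untreated lists. The summit lay upstream of the start on chr19 at 12902310, in a region from 12901773 to 12902752. Its offset was -178, -175 and -175 bp with insulin and -177, -175 and -177 bp without. All 6 summits thus lay within 3 bp of each other. As small a spread was found in 0.195% of the shared regions, whose median spread was 94 bp. The forkhead match in the printed JUNB sequence begins at -166 from the RefSeq start. The start of that table and the start used for the peaks come from different builds and were not aligned, so the distance between match and summit is approximate. The JUNB window held 2 more sites with a summit in all 6 libraries, at -1498 to -1185 bp and at 2090 to 2231 bp, and these ranked low, with mean percentiles of 12.5 and 11.0. Genes whose span comes within 5 kb of that of JUNB in the reference table include HOOK2 and PRDX2. Their starts were not compared with the peaks, and no peak was assigned to 1 gene rather than another.

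FOS, the founding partner of JUN proteins in AP-1, had its main peak away from the start. In the insulin libraries the summit stood at -1540, -1538 and -1526 bp, and in the untreated libraries at -1554, -1541 and -1539 bp, from the start on chr14 at 75745481. The region ran from 75743488 to 75744673. Its fold was 23.0, 26.5 and 15.0 with insulin and 17.4, 17.2 and 13.0 without. A weaker peak at the start itself, at -215 to -70 bp, was called in every library as well. That peak had folds of 9.99, 8.92 and 7.11 with insulin and 7.42, 6.43 and 4.56 without. The upstream peak stood above the start peak in 6 of 6 libraries, and the printed FOS sequence covers only the weaker of the pair.

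JUN had the lowest mean percentile of the 8 genes with a shared lead region. The region reached from 59248828 to 59251331 on chr1, across the start at 59249785. Its fold was 9.14, 7.28 and 6.83 in the insulin libraries and 4.02, 4.75 and 6.38 in the untreated libraries. The strongest summit stood at -983, -1028 and -1028 bp with insulin, and at -44, -1003 and 20 bp without. The untreated libraries therefore placed it at the start in 2 cases and about 1 kb upstream in 1 case. JUN has a divergent transcript, JUN-DT, next to it in the reference table.

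ATF3, a stress-induced member of the same bZIP class of factors, had 1 peak in its window in insulin 1 and none in the other 5 libraries. That peak lay at 1475 bp from the start on chr1 at 212738676, with a fold of 3.18 and 8 fragments at its summit (95% Poisson interval 3.45 to 15.8). It ranked 47368th of the 48208 peaks of its list. Peaks farther from that start were then inspected, a step chosen after the window had been found almost empty. All 6 libraries had a strong summit 43.3 to 43.4 kb downstream, in a region from 212780921 to 212782445. Its fold was 24.7, 17.3 and 18.9 with insulin and 11.9, 6.89 and 11.6 without, and the 6 summits lay within 36 bp. Its percentile among shared regions was 94.4, 90.5 and 94.9 with insulin and 90.1, 78.8 and 90.3 without. The means were 93.3 ± 2.38 (SD, n = 3) and 86.4 ± 6.58 (SD, n = 3), a difference of 6.88 points with an exact permutation p of 0.1, adjusted to 0.999. The insulin percentiles all exceeded the untreated ones, by the least between 90.5 and 90.3. Of all shared regions, 4.66% had this property, and this site lay outside the window. The RefSeq table lists 2 ATF3 promoters, whose entries begin at 212565157 and 212614768 of chr1 on GRCh38.p14. The 5 kb window was placed on the 1 stated start only. Whether that start is the one used in HepG2 was not tested. Which start or gene lies nearest this downstream summit was not looked up, because no hg19 annotation was used.

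**Figure D2:**
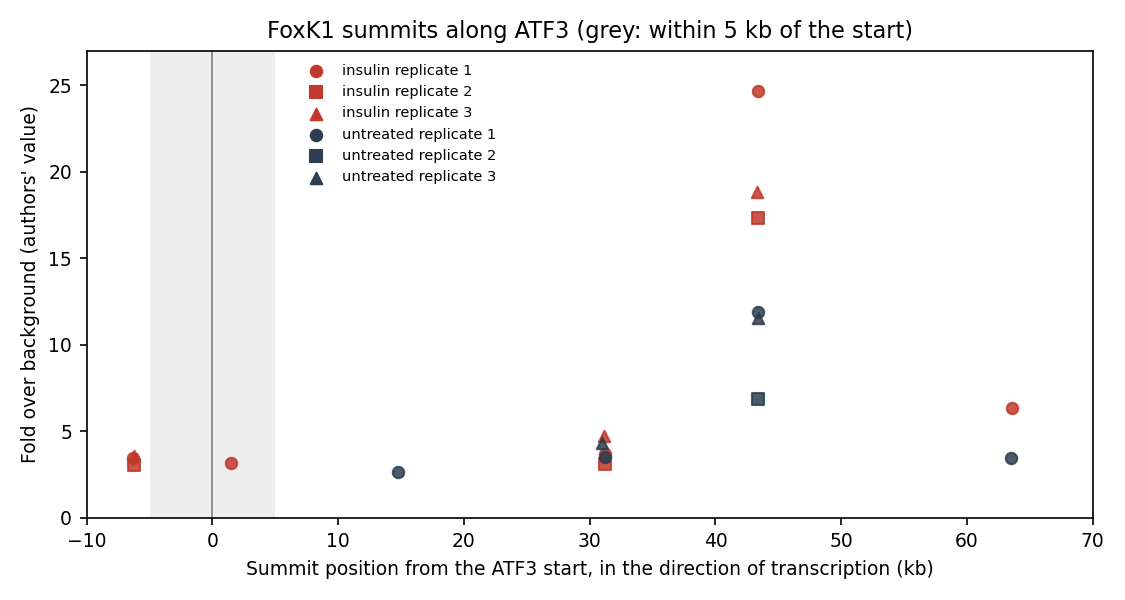
Authors' fold over background of every summit around ATF3 against its distance from the stated start in kb along the direction of transcription, with symbols for the 6 libraries and grey shading for the 5 kb window. The window holds 1 summit of fold 3.18, while all 6 libraries have a summit at 43.3 to 43.4 kb with folds of 6.89 to 24.7.

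EGR1, a zinc finger factor and a target of serum response factor, had its main summit downstream of the start. The summit stood at 1062, 1073 and 1032 bp with insulin and at 1098, 1080 and 1061 bp without, from the start on chr5 at 137801181. The lead region, from 137799238 to 137802626, was wider than nearly all others, since 0.787% of shared regions were as wide. Its fold was 10.8, 9.90 and 7.92 in the insulin libraries and 7.60, 6.29 and 8.43 in the untreated libraries. A second site between -827 and -193 bp had a summit in 5 libraries, and another at 4784 and 4888 bp in insulin 1 and insulin 2 only. The strongest EGR1 summit was therefore more than 1 kb from the sequence that holds the CArG boxes.

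KLF6, a Krüppel-like zinc finger factor, had 1 unusually wide region from 3824171 to 3829222 on chr10, around its start at 3827473. It was 5052 bp wide, and 0.0629% of the shared regions were as wide. The region held 4 sites, of which the one at the start, -71 to 84 bp, had a summit in all 6 libraries. The fold of the strongest peak was 14.8, 11.8 and 12.2 with insulin and 7.11, 5.03 and 6.61 without. In untreated 2 that strongest peak lay elsewhere, at 1126 bp, and the peak of that library at the start had a fold of 3.94.

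KLF10, a Krüppel-like factor induced early by TGF-beta, had its strongest summit just upstream of the start. It stood at -132, -91 and -123 bp with insulin and at -142, -159 and -82 bp without. Its fold was 23.0, 14.0 and 16.4 in the insulin libraries and 10.3, 7.78 and 9.11 in the untreated libraries. A second site at 1697 to 1946 bp downstream was also found in every library. On chr8 the start was 103667983 and the lead region ran from 103667679 to 103669919.

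DUSP1 encodes a phosphatase that inactivates MAP kinases and so damps the signal that induces these genes. Its strongest summit stood at -1315, -1305 and -1307 bp with insulin and at -1308, -1287 and -1282 bp without, from the start on chr5 at 172198203. The region ran from 172198930 to 172199886, upstream because the gene lies on the minus strand. The fold was 31.0, 26.3 and 23.2 in the insulin libraries and 12.3, 11.0 and 11.6 in the untreated libraries. Every library also had a summit at the start, at -105 to -44 bp, and another at 4452 to 4679 bp. The CRE in the printed DUSP1 sequence is at -125 and so falls near the start peak, not the stronger upstream one.

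IER2, an immediate early gene whose product acts in the nucleus, had its main summit downstream, at 1498, 1463 and 1733 bp with insulin and 1464, 1687 and 1438 bp without. The region ran from 13262255 to 13264582 on chr19, and the start was at 13261282. Its fold was 9.54, 11.0 and 7.23 in the insulin libraries and 5.62, 6.11 and 5.33 in the untreated libraries. A further site at the start, -133 to -17 bp, was found in all 6 libraries with folds of 3.12 to 6.80. The span of the protein-coding gene STX10 comes within 5 kb of that of IER2, and this site was not assigned to either gene.

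BTG2, an antiproliferative gene also induced by p53, had weak peaks only. Its 6 peaks had folds of 3.26 to 4.20 and stood at the 12.4th to the 35.3rd percentile of their own lists. They formed 2 regions, each called in 3 libraries, and insulin 3 had no peak in the window. The window was centred on 203274664 of chr1.

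Ranked by mean percentile among shared regions, the order was JUNB at 99.0, DUSP1 at 93.5, FOS at 91.2, KLF10 at 85.9, KLF6 at 62.5, EGR1 at 60.8, IER2 at 58.1 and JUN at 41.0. Only the step from JUNB to DUSP1 separated neighbours without overlap of their ranges. JUNB stood above DUSP1 in 6 of 6 libraries. DUSP1 was above FOS in 4 of 6, FOS above KLF10 in 4 of 6, and KLF10 above KLF6 in 6 of 6, with ranges that overlapped. KLF6 exceeded EGR1 in 3 of 6, in each insulin library and in no untreated library. EGR1 exceeded IER2 in 3 of 6, in each untreated library and in no insulin library. The order within both pairs thus differed between the treatments, which was not tested. Both pairs were picked from the ranking itself. EGR1 and IER2 were close in insulin 1 (51.1 and 51.6), insulin 3 (60.3 and 60.9) and untreated 2 (65.5 and 64.5). They were farther apart in insulin 2, untreated 1 and untreated 3. IER2 exceeded JUN in 5 of 6. The lead summits of JUNB, DUSP1, FOS and KLF10 thus stood at or above the 81.8th percentile in every library, while those of the other 4 genes ranged from 23.5 to 85.1.

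**Figure D3:**
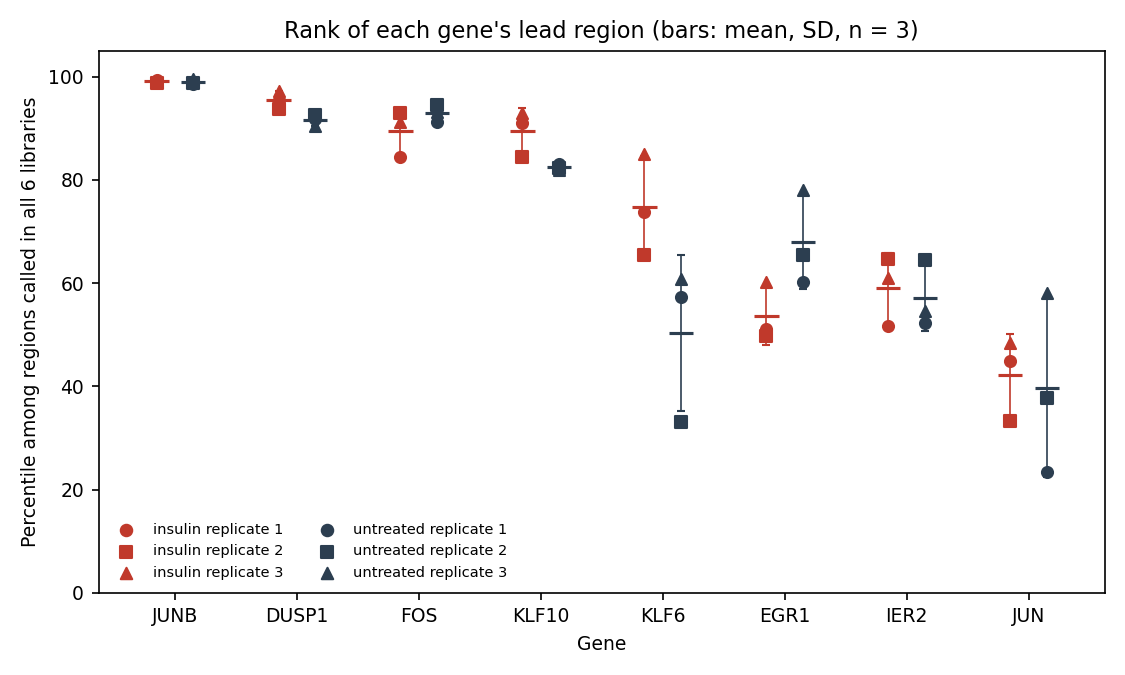
Percentile of each gene's lead region among the 15887 shared regions (vertical axis, 0 to 100) in the 3 insulin and 3 untreated libraries, with bars at the mean and SD (n = 3). The JUNB points sit together between 98.5 and 99.5, and the insulin points stand above the untreated points for DUSP1, KLF10 and KLF6.

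The fragment numbers behind these ranks differed between libraries. JUNB had 406, 414 and 136 fragments at its summit in the insulin libraries and 358, 214 and 140 in the untreated libraries. JUN, at the other end, had 58, 67 and 24 with insulin and 73, 41 and 27 without. Both genes had their lowest numbers in the libraries numbered 3. At shared regions the median number was 60, 82 and 29 with insulin and 87, 51 and 29 without. The median background estimated at those summits was 5.03, 8.0 and 3.45 fragments with insulin, against 12.9, 9.15 and 4.41 without. At the lead peaks the background was higher in the untreated library in 19 of 24 same-numbered pairs, and over all shared regions in 87.9% of such pairs. The part of the background in the folds was not tested, and the percentile compares a region only with others of the same library. Total sequencing depth is unknown, and the Poisson intervals cover counting error only.

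**Figure D4:**
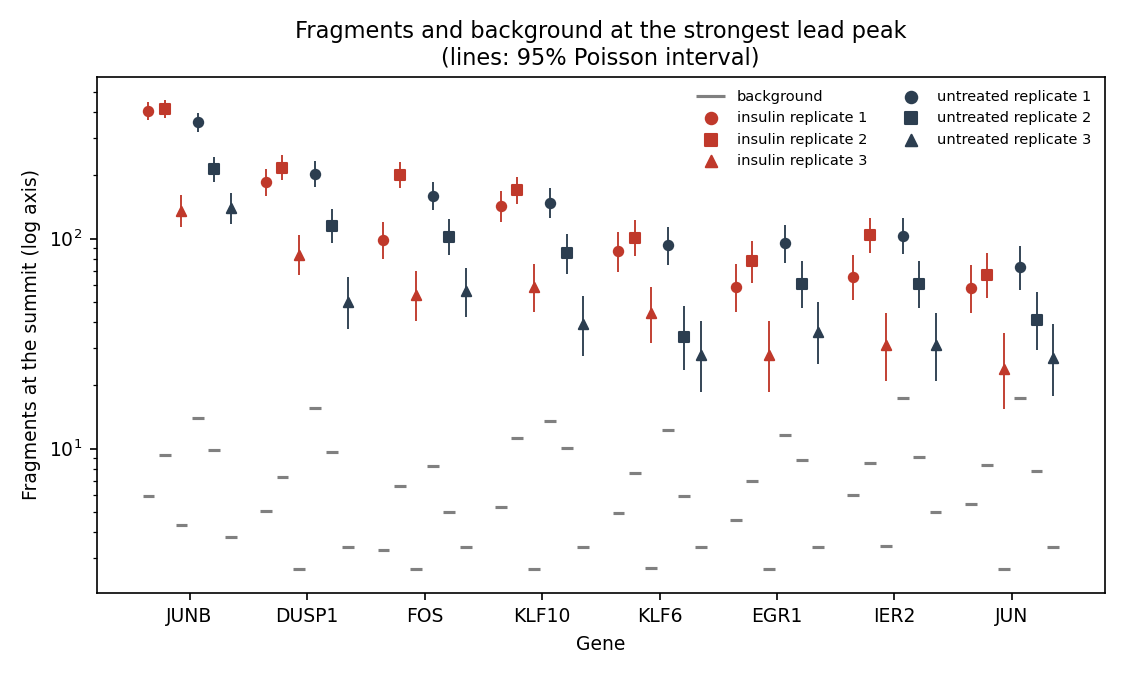
Fragments at the strongest summit of each lead region (log axis) in the 6 libraries, with 95% Poisson intervals as lines and the estimated background as grey bars. JUNB reaches 414 fragments in insulin 2, and the triangles of the libraries numbered 3 are the lowest or near the lowest for every gene.

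Insulin against no insulin was the comparison that the design was made for. The windows held 26, 23 and 23 peaks in the insulin libraries and 27, 21 and 24 in the untreated libraries. The means were 24.0 ± 1.73 (SD, n = 3) and 24.0 ± 3.0 (SD, n = 3), with a two-sided exact permutation p of 1. Ranked by −log10 q, the lead regions of DUSP1, KLF6 and KLF10 stood higher in each insulin library than in any untreated library. No lead region stood lower in each insulin library than in any untreated library. None of these differences passed the test. With 3 libraries against 3 the smallest exact permutation p is 0.1, so 0 of 15887 shared regions had an unadjusted p under 0.05. The lowest p after Benjamini-Hochberg adjustment over all of them was 0.999.

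KLF6 had the largest difference. Its lead region stood at the percentiles 73.7, 65.5 and 85.1 with insulin and 57.3, 33.0 and 60.8 without. The groups did not overlap, and untreated 2 was far below the rest. The means were 74.7 ± 9.84 and 50.4 ± 15.1 (SD, n = 3 each), a difference of 24.4 points with an exact permutation p of 0.1, adjusted to 0.999. Without untreated 2 the difference was 15.7 points.

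KLF10 stood at 91.0, 84.4 and 92.9 with insulin and at 83.1, 82.3 and 81.8 without. Insulin 2 lay closest to the untreated values, which were within 2 points of each other. The means of 89.4 ± 4.45 and 82.4 ± 0.617 (SD, n = 3 each) differed by 7.01 points, with an exact permutation p of 0.1, adjusted to 0.999.

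DUSP1 stood at 95.5, 93.8 and 97.3 with insulin and at 91.8, 92.6 and 90.4 without. The lowest insulin value was above the highest untreated value by little more than 1 point. The means of 95.5 ± 1.72 and 91.6 ± 1.12 (SD, n = 3 each) differed by 3.94 points, with an exact permutation p of 0.1, adjusted to 0.999. The DUSP1 region at the start stood at 72.6, 66.2 and 85.3 with insulin and 55.0, 44.6 and 72.5 without, and there the groups overlapped (difference 17.4 points, exact permutation p = 0.2, adjusted to 0.999).

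EGR1 and FOS had negative differences. The EGR1 percentiles were 51.1, 49.8 and 60.3 with insulin and 60.2, 65.5 and 78.0 without, which overlapped by insulin 3 and untreated 1 alone. The EGR1 means of 53.7 ± 5.75 and 67.9 ± 9.12 (SD, n = 3 each) differed by -14.2 points (exact permutation p = 0.2, adjusted to 0.999), and by -9.14 points without untreated 3. The FOS percentiles were 84.5, 93.0 and 91.1 with insulin and 91.2, 94.4 and 93.2 without. The FOS difference was -3.42 points (exact permutation p = 0.2, adjusted to 0.999), with insulin 1 below the other 5 libraries, and -0.895 points without insulin 1.

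JUNB, IER2 and JUN had differences that were small beside their spread. JUNB stood at 99.4, 98.7 and 99.0 with insulin and 98.5, 98.8 and 99.5 without, a difference of 0.117 points. IER2 stood at 51.6, 64.8 and 60.9 with insulin and 52.3, 64.5 and 54.6 without, a difference of 1.93 points. JUN stood at 45.0, 33.3 and 48.3 with insulin and 23.5, 37.7 and 58.0 without, a difference of 2.45 points. The exact permutation p was 0.8 for JUNB and 0.9 for IER2 and JUN, each adjusted to 0.999.

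Across the 8 genes, 3 did not overlap with insulin higher and 0 did with insulin lower. Of all 15887 shared regions, 4.66% had the first property and 4.31% the second. The median difference of the 8 genes was 2.19 points, and that of all shared regions was 0.134 points, with quartiles at -5.72 and 5.83. A positive difference was found for 6 of the 8 genes and for 50.9% of all shared regions. Ranked by the authors' fold in place of the q-value, DUSP1 alone did not overlap with insulin higher, FOS did not overlap with insulin lower, and KLF6 and KLF10 overlapped. Ranked by the fragments at the summit of the strongest peak, DUSP1, KLF6 and KLF10 again did not overlap with insulin higher. EGR1 did not overlap with insulin lower. Fragment numbers use no background, but that peak was still chosen by its q-value, which depends on background. For KLF6 in untreated 2 the chosen peak had 34 fragments and the peak at the start had 43. The shares of 4.66% and 4.31% belong to the q-value ranking. No such share is given for the rankings by fold and by fragments, so their counts cannot be set against all shared regions.

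**Figure D5:**
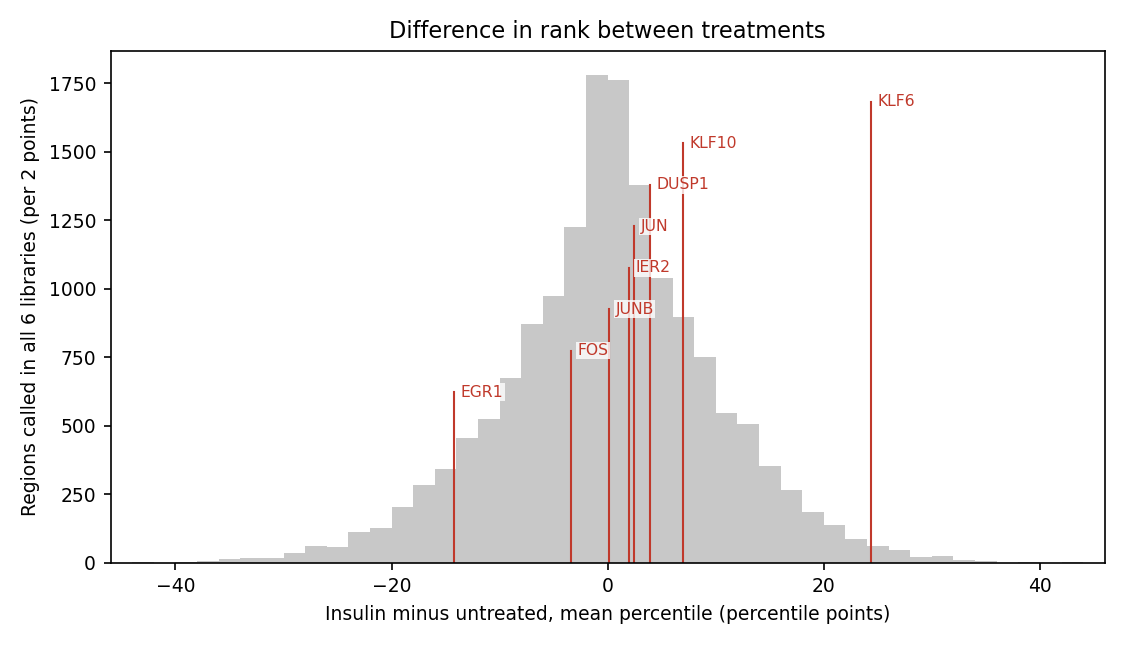
Histogram of the insulin minus untreated difference in mean percentile over the 15887 shared regions (horizontal axis in percentile points, vertical axis in regions per 2 points), with red lines at the 8 genes, whose heights only space the names. KLF6 stands farthest to the right at 24.4 and EGR1 farthest to the left at -14.2, and the other 6 lie between -3.42 and 7.01.

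In pairs of libraries with the same number, KLF6, KLF10 and DUSP1 stood higher with insulin in 3 of 3 pairs, and EGR1 and FOS lower in 3 of 3. Of all shared regions, 14.6% stood higher with insulin in 3 of 3 pairs and 13.8% lower. KLF6 was higher with insulin by 16.4, 32.4 and 24.3 points in pairs 1 to 3, KLF10 by 7.89, 2.07 and 11.1, and DUSP1 by 3.67, 1.24 and 6.90. EGR1 differed by -9.14, -15.7 and -17.7 points and FOS by -6.72, -1.46 and -2.07. JUN differed by 21.5, -4.41 and -9.72 points, so its pairs disagreed in sign, as did those of JUNB and IER2. Without both libraries numbered 3, the differences were 24.4 for KLF6, 4.98 for KLF10, 2.46 for DUSP1, -12.4 for EGR1 and -4.09 for FOS.

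Of the 16 shared regions in the windows, 15 had summit positions that overlapped between the treatments. Among all shared regions, 8.91% did not overlap in this way. The exception was a weak region downstream of IER2, whose summits stood at 5206 to 5243 bp in the insulin libraries and 4478 to 4609 bp in the untreated libraries. A gap as wide as these 597 bp was found in 0.0441% of shared regions. This region was picked out after its values had been seen, and its folds were 4.09 to 4.65 with insulin and 2.45 to 4.59 without. The 5 kb limit runs through the gap, so the window counted only the untreated summits of this region.

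Other summits near the limit were few. Just inside lay DUSP1 sites at -4532 to -4447 bp and 4452 to 4679 bp, the FOS summits at 4571 and 4693 bp and the EGR1 summits at 4784 and 4888 bp. Just outside lay DUSP1 summits at -5237 to -5181 bp in 3 libraries, with folds of 3.46 to 5.66, a FOS summit at 5069 bp in insulin 1 with a fold of 4.24, and EGR1 summits at -5916 and -5927 bp in insulin 3 and insulin 2. DUSP1 had a stronger site beyond the limit, at 5697 to 5777 bp in all 6 libraries. Its folds were 16.8, 13.9 and 14.2 with insulin and 10.2, 5.99 and 5.62 without, above those of the DUSP1 site at 4452 to 4679 bp in every library except untreated 3, where they were 5.62 outside and 5.92 inside.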

How the data were processed

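FoxK1 peak lists from 6 HepG2 libraries, 3 with insulin and 3 untreated, were analysed, with groups and numbers taken from the titles and treatment labels. The 10 genes, the motifs and the tests were chosen with earlier results of these data known, and all 10 genes are named. The submitters' processing notes name the build hg19 and the tools MACS2, Bowtie2, SAMtools and fastp; no version, threshold or use of the inputs is given in them. The authors deposited for each peak a score, a fold over background (a linear ratio), a −log10 p and a −log10 q, the latter depending on library depth. The deposited score was not used in any result.

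Peaks were merged at 1 bp of overlap. A region's value in a library was the −log10 q of its strongest peak, ranked among the 15887 regions called in all 6 libraries. Fragments and background at a summit were derived from fold and −log10 p, both as deposited, and a whole number of fragments met both within 0.0005 for 100% of summits. Treatments were compared over all 20 assignments of the libraries by a two-sided exact permutation test, adjusted by Benjamini-Hochberg over all shared regions. The scripts were checked on simulated data. Python 3.11.15, numpy 2.4.6, pandas 2.3.3, scipy 1.17.1 and matplotlib 3.10.9 were used.

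Same-numbered libraries deviated together from their treatment means over the shared regions (r = 0.123, 0.300 and 0.307). Libraries with different numbers had r from -0.321 to 0.0933, the highest for insulin 2 and untreated 1. These r values are not independent, since each deviation is from a mean of 3 libraries. On these values the numbers were taken to pair the libraries. The alternatives were other windows, merging rules, thresholds, ranking values, libraries left out and a replicate block. A single summit site in place of the strongest peak, and a ranking by fragments, were added after seeing the data. No annotation or genome of hg19 was used, so exons and introns are not given and further immediate early genes were not analysed here.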

Additional observations from a re-analysis of the deposited data

How the results depend on the processing

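Insulin minus untreated peaks in the windows remained between -1.5 and 1.5 when each library was left out, and was 4.33 with windows of 10 kb. Lead regions were called in every library used, which is fewer than 6 where libraries were left out, for 8 genes in 12 of 13 alternatives and for 6 genes if only summits at most 100 bp apart were joined into a region. The median percentile difference ran from -0.279 to 2.93 when each library was left out, and the negative value came without untreated 1. With the replicate block (sign flips over the 3 pairs, smallest exact p 0.25), the difference in peaks was 0 and the median percentile difference 2.19. The block leaves every mean difference as it was, and no p under 0.05 was possible with or without it. The number of genes not overlapping with insulin higher was 3 in 12 of 13 alternatives and 1 when ranked by fold; the strongest peak anywhere in the window, counted among the 13, left every lead value as it was. The number with insulin lower was 0 to 2 when each library was left out, 1 without both libraries numbered 3, 1 when ranked by fold and 1 when ranked by fragments. With fewer libraries, non-overlap is easier to reach. No share of all shared regions is given for these alternatives, so the counts in either direction are not read as results about the genes. Of 110 single-gene values under alternatives, 25 equalled the reported value, as all did with the replicate block and with the strongest peak anywhere in the window; of the other 85, 76 kept their sign and 9 did not. The differences that changed sign were those of JUN (-5.66 to 11.6 with each library left out), JUNB (-0.0766 to 0.392, and -0.147 when ranked by fold) and IER2 (-0.902 to 5.68, -0.269 without both libraries numbered 3, and -1.39 when ranked by fragments); the cause was not tested. The rank test cannot pass the threshold at 3 libraries a group, so these p-values say nothing of stability.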

Other observations

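The weaker shared regions of the windows add to the account of the lead regions, and the percentiles of insulin and untreated libraries overlapped in all of them. The FOS region at the start differed by -3.34 points (exact permutation p = 1). The JUNB regions near -1.4 and 2.1 kb differed by -3.91 points (exact permutation p = 0.2) and -13.1 points (exact permutation p = 0.3). The IER2 region at the start differed by 5.16 points (exact permutation p = 0.7). The DUSP1 region near 4.5 kb differed by -12.1 points (exact permutation p = 0.2), opposite in sign to the DUSP1 region at the start, and the difference between them was not tested. The IER2 region near 5 kb differed by -2.94 points (exact permutation p = 1). The KLF10 region downstream differed by 5.06 points (exact permutation p = 0.6).

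A summit at -6325 to -6269 bp from the ATF3 start was called in the 3 insulin libraries and in no untreated library, with folds of 3.03 to 3.55 and 12 to 18 fragments. Of all 68127 merged regions, 256 (0.376%) were called in the same 3 libraries and in no other. It was chosen after its values had been seen and was weak in each list, at the 6.42nd to the 15.9th percentile. Another ATF3 site about 31 kb downstream was called in 5 libraries, all but untreated 2, with folds of 3.09 to 4.73.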
